A study of Homo sapiens with 6 samples.

Results

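Laminins, nidogens and perlecan are secreted proteins of the basement membrane, the sheet of matrix under an epithelium. The genes described here are the 9 rows of the count table named LAMA3, LAMA4, LAMA5, LAMB1, LAMB2, LAMB3, LAMC1, NID1 and HSPG2, chosen by symbol from a table of 26485 rows. They were measured in HuCCT1, a human cell line established from a cancer of the bile ducts (cholangiocarcinoma), by sequencing of polyadenylated RNA. The wild-type group is CRISPR clone 1 with libraries a, b and c, and the other group is clone 22, labelled AQP1 KO, also with libraries a, b and c. Cells of both clones grew in DMEM-F12 medium with serum, and no other treatment is named. Each genotype is 1 clone, so genotype and clone cannot be told apart. Nothing in the labels says that the letters are separate cultures, so that p-values measure only how far these libraries differ, which may be technical. The label of the second clone is written "knockout" below.

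A laminin is a trimer of 1 alpha, 1 beta and 1 gamma chain, each from its own gene, which is secreted and polymerises at the cell surface. Alpha chains carry most of the sites that integrins and dystroglycan bind, while beta and gamma chains set which trimers can form. LAMA3 and LAMB3 chains belong to a trimer that anchors epithelial cells through hemidesmosomes. LAMC1 is the common gamma chain, which pairs with LAMB1 or LAMB2 and with LAMA4 or LAMA5. NID1 encodes nidogen 1, which links laminin to collagen IV, and HSPG2 encodes perlecan, a large proteoglycan with heparan sulfate chains. In the liver, a laminin-containing basement membrane surrounds the bile ducts.

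The tested genes whose levels moved most, LAMB3 and LAMA3, and the single gene that was higher, LAMB2, are shown first by the sequence around their starts. The windows run from 250 bases before to 50 bases after a start and come from RefSeq on GRCh38.p14, which is the hg38 assembly named by the submitters. All 9 genes had a window, and LAMB3 had 3. The only LAMA3 window lies at an internal start, inside the gene, which begins at 23689453 on chromosome 18. No window at that outer start was examined. Each is printed 5′ to 3′ on the strand of the gene. Capitals mark matches to 4 short motifs on either strand. They are the E-box CAGGTG that ZEB and SNAI repressors bind, the AP-1 site TGANTCA, the GC box GGGCGG and the SMAD box CAGACA.

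LAMA3, chr18:23872770-23873069, plus strand: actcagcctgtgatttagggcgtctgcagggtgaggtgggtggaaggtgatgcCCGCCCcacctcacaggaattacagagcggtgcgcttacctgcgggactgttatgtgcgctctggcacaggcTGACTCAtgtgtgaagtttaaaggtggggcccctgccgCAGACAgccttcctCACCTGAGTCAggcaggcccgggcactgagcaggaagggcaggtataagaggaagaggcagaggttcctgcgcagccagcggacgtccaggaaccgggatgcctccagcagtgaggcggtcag

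LAMB3 outermost start, chr1:209652376-209652675, minus strand: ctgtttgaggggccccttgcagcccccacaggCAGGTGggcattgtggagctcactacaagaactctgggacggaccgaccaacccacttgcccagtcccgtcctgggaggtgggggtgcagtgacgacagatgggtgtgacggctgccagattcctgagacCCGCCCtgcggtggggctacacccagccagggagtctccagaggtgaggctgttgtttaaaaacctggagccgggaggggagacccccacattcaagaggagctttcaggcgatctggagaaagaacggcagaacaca

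LAMB3 innermost start, chr1:209651325-209651624, minus strand: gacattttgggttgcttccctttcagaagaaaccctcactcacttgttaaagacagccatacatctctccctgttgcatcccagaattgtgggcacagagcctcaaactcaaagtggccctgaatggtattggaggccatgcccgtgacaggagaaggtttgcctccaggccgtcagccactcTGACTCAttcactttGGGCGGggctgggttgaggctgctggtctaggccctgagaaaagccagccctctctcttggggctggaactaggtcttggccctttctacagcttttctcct

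LAMB2, chr3:49133001-49133300, minus strand: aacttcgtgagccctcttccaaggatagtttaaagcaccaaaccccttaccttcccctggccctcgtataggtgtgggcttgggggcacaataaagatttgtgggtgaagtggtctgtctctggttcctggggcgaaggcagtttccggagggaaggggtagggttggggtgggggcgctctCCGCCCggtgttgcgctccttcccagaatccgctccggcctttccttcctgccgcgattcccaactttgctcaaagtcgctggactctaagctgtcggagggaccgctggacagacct

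Counting from 1 at the start, the LAMA3 window held an E-box match from -73 to -68 (read as CACCTG), which shared 2 bases with an AP-1 match from -69 to -63. It also held an AP-1 match from -125 to -119. The outermost LAMB3 window held an E-box match from -218 to -213, and the innermost an AP-1 match from -67 to -61. LAMB2 held 1 GC box match and none of the other motifs. Over all 9 genes, an E-box match was found for 3 (LAMA3, LAMA5 and LAMB3), an AP-1 match for 2 (LAMA3 and LAMB3), a SMAD box match for 3 (LAMA3, LAMA4 and HSPG2) and a GC box match for 8, with LAMA4 as the exception. Counted by window, of the 11 windows of these genes 3 held the E-box, 2 the AP-1 site, 3 the SMAD box and 10 the GC box. The outermost and middle LAMB3 windows overlap, and their GC box match is the same site, counted in each window. Of all 35116 RefSeq windows of this length, 20.6% held the E-box, 7.71% the AP-1 site, 16.9% the SMAD box and 45.0% the GC box. A match is a description of these letters and does not show that a factor binds there.

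Library totals ran from 36925338 to 41724447 counts, and 16476 to 17254 genes had at least 1 count. Levels are counts per 1000000 counts of a library (CPM) after TMM scaling, and means are given ± SD with n = 3 libraries. Fold changes are knockout over wild type. A gene is called when its adjusted p in edgeR's quasi-likelihood test with Benjamini-Hochberg adjustment over 14405 tested genes is under 0.05. The targeted gene AQP1 was near the limit of detection, at 2, 8 and 10 counts across the wild-type libraries against 10, 7 and 7 across the knockout, so it does not check the labels. Its ratio of summed counts was 1.20, with an exact 95% counting interval of 0.637 to 2.30. As a check of the labelled cell type, 7 of 8 cholangiocyte markers were called lower and 1 was not called. Of all tested genes, 37.2% were called lower. The markers were still present, and their summed level was 3267 to 3350 CPM in wild type and 1856 to 1894 CPM in the knockout. KRT7, a cytokeratin of bile duct cells, was at 1785 ± 38.6 and 1584 ± 17.9 CPM, while KRT19 fell from 770.2 ± 15.2 to 91.7 ± 4.56 CPM and EPCAM, an epithelial adhesion protein, from 487 to 500.3 CPM in the wild-type libraries to 38.2 to 41.0 CPM in the knockout libraries. The part of these falls in the laminin values was not tested.

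The knockout libraries held less RNA of most of these genes. Of the 9 genes, 8 passed the filter on low counts, and all 8 were called, 7 lower and 1 higher. All 8 had ample counts in both groups, so none passed through 1 group alone. Of all tested genes, 74.4% were called, 37.2% lower and 37.1% higher, so being called says little here. In all 8 the libraries of the groups did not overlap, as in 76.9% of all tested genes. Their log2 fold changes had a median of -0.75, beside 0.01 over all tested genes. In bulk RNA, fewer cells that express a gene and less RNA per cell cannot be told apart. The 9 genes took 0.230 to 0.238% of the counts of a wild-type library and 0.105 to 0.107% of a knockout library.

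**Figure D1:**
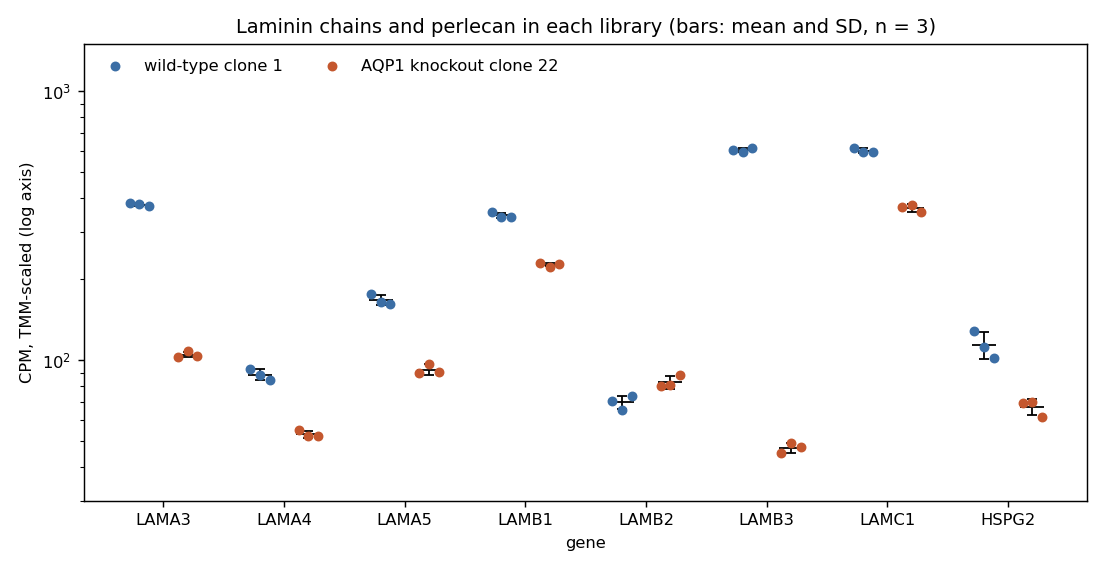
Level of 8 of the 9 genes in each library, in CPM on a log axis. Points are libraries, short bars the mean and error bars the SD (n = 3). LAMB3 sits between 597 and 617 CPM in wild type and between 45.3 and 49.3 CPM in the knockout, and LAMB2 is the gene whose knockout libraries lie above the wild type. NID1, at or near 0, is not drawn.

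LAMB3 encodes the beta chain of the epithelial trimer and had the largest change of the 8 tested genes. In the order a, b, c, as in all such values below, it stood at 603, 597 and 617 CPM in wild type and at 45.3, 49.3 and 47.4 CPM in the knockout. Every wild-type library lay far above every knockout library. The mean fell from 606 ± 9.93 to 47.3 ± 1.99 CPM, which is 7.81% of wild type on the fitted scale (log2 fold change -3.68, SE 0.033, adjusted p = 1.69e-17). Of the 14405 tested genes, 152 (1.06%) had a lower log2 fold change than LAMB3. The gene lies on the minus strand of chromosome 1 (209614870 to 209652425, GRCh38).

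LAMA3, the alpha chain of that trimer, stood at 383, 379.9 and 373 CPM in wild type and at 103, 108 and 104 CPM in the knockout. The libraries within a clone differed little, and the groups did not overlap. It fell 3.61-fold from 379 ± 5.01 to 105 ± 2.89 CPM (log2 fold change -1.85, SE 0.027, adjusted p = 1.84e-15). It lies on the plus strand of chromosome 18 (23689453 to 23955066). LAMB3 and LAMA3 were the 2 genes of the 9 called lower by at least 2-fold, a size reached by 9.05% of all tested genes.

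The other alpha chains fell less. LAMA5 is the alpha chain of the trimers most widespread in epithelial basement membranes. It stood at 176, 165 and 162 CPM in wild type and at 89.4, 97.1 and 90.2 CPM in the knockout. These groups did not overlap, and the mean went from 167 ± 7.48 to 92.2 ± 4.24 CPM (log2 fold change -0.86, SE 0.038, adjusted p = 1.22e-10). LAMA5 (chromosome 20, 62309065 to 62367312) overlaps ADRM1 on the opposite strand. ADRM1 had 26126 summed counts in wild type and 13491 in the knockout, and since no source says whether counting used strand, reads from the shared stretch cannot be assigned with certainty.

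LAMA4 encodes the alpha chain known from vessels, muscle and other mesenchymal tissue. It stood at 92.7, 87.9 and 84.4 CPM in wild type and at 54.9, 52.1 and 52.1 CPM in the knockout. All knockout libraries were lower, with means of 88.3 ± 4.20 and 53.0 ± 1.58 CPM (log2 fold change -0.74, SE 0.044, adjusted p = 2.70e-09). It lies on chromosome 6 (112107931 to 112254985). The mesenchymal chain therefore fell in the same direction as the epithelial chains.

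The beta chains did not move alike. LAMB1, the beta chain of the widespread trimers, stood at 355, 342 and 339.5 CPM in wild type and at 229, 223 and 227 CPM in the knockout. It fell from 346 ± 8.03 to 226 ± 3.12 CPM with no overlap of the groups (log2 fold change -0.61, SE 0.026, adjusted p = 6.70e-11). When tested against a change of 1.5-fold with glmTreat, the fall did not pass (adjusted p = 0.161). LAMB1 (chromosome 7, 107923799 to 108003161) overlaps DLD on the opposite strand, which had 19542 summed counts in wild type and 14858 in the knockout, with the same limit.

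LAMB2, which replaces LAMB1 in trimers of muscle, nerve and glomerulus, was the single laminin gene called higher. It stood at 70.3, 65.3 and 73.3 CPM in wild type and at 80.0, 80.7 and 88.3 CPM in the knockout. The groups did not overlap, but the gap between them was small. The rise was from 69.6 ± 4.02 to 83.0 ± 4.61 CPM (log2 fold change 0.25, SE 0.049, adjusted p = 0.000359). It was not called against a change of 1.5-fold (glmTreat, adjusted p = 1.00). LAMB2 lies on chromosome 3 (49121114 to 49133050).

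LAMC1, the common gamma chain, stood at 618, 593 and 595 CPM in wild type and at 371, 378 and 355 CPM in the knockout. It fell from 602 ± 14 to 368 ± 12.1 CPM (log2 fold change -0.71, SE 0.029, adjusted p = 5.04e-11) and lies on chromosome 1 (183023420 to 183145592). The other laminin chains of the 9 that fell, LAMB1, LAMC1, LAMA4 and LAMA5, had log2 fold changes between -0.61 and -0.86, while LAMB2, which also pairs with LAMC1, rose.

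Of the linkers, perlecan was lower and nidogen 1 was nearly absent. HSPG2 stood at 128, 112 and 102 CPM in wild type and at 69.4, 70.1 and 61.6 CPM in the knockout, with wild-type library a the highest and the widest wild-type spread, relative to the mean, of the 8 tested genes. The fall from 114 ± 13.1 to 67.0 ± 4.72 CPM was called (log2 fold change -0.77, SE 0.069, adjusted p = 2.02e-07). HSPG2 lies on chromosome 1 (21822244 to 21937310). LDLRAD2, which overlaps it on the opposite strand, had 21 summed counts in wild type and 2 in the knockout, too few to weigh on HSPG2.

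NID1 (chromosome 1, 235975830 to 236065090) was listed at 0 counts in all 3 wild-type libraries, while the knockout had 7, 2 and 0. A count of 3 equals 0.0722 to 0.0794 CPM per library, so at this depth nidogen 1 RNA was at or near the limit of detection in both clones. Knockout library c had no count, and library a held most of them. The gene failed the filter and, when added back to the tested genes, was not called (edgeR, adjusted p = 0.0670).

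Other members of both families were low, with group means of at most 6.0 CPM. Of LAMA1, LAMA2, LAMB4, LAMC3 and NID2, 4 were tested, 2 fell, none rose and 2 did not pass, with a median log2 fold change of -0.79. LAMA1, an alpha chain of embryonic basement membranes, fell from 6.0 ± 0.310 to 2.44 ± 0.176 CPM (adjusted p = 2.32e-06), and LAMA2, the alpha chain of muscle, from 2.25 ± 0.442 to 1.08 ± 0.237 CPM (adjusted p = 0.00206). LAMB4 was at 0.512 ± 0.214 and 0.749 ± 0.314 CPM and nidogen 2 (NID2) at 0.378 ± 0.130 and 0.261 ± 0.112 CPM, and neither was called. LAMC3, with no wild-type count and a knockout mean of 0.0257 ± 0.0265 CPM, was not tested. Both nidogen genes were thus below 1 CPM in every library.

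Ratios of 2 chains within a library do not depend on how libraries are scaled. Of 8 planned ratios 7 were computed, since NID1 had counts of 0. With 3 libraries against 3, an exact two-sided permutation test cannot go below p = 0.10, so no ratio can pass 0.05. For 6 of 7 ratios the groups did not overlap, with an exact permutation p = 0.10, or 0.12 after Benjamini-Hochberg adjustment over the 7. LAMB1 per LAMB3 count went from 0.588, 0.573 and 0.550 in wild type to 5.05, 4.52 and 4.79 in the knockout, an 8.38-fold change of the ratio. The wild type thus held fewer LAMB1 than LAMB3 counts and the knockout more, with no correction for the lengths of the genes. LAMB2 per LAMB3 changed 15.3-fold and LAMB2 per LAMB1 1.82-fold.

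Among alpha chains the shift was smaller. LAMA4 per LAMA3 went from 0.242, 0.231 and 0.226 to 0.534, 0.482 and 0.503, a 2.17-fold change, and LAMA5 per LAMA3 changed 1.99-fold. LAMA4 per LAMA5 changed 1.09-fold, from 0.527, 0.533 and 0.522 to 0.614, 0.537 and 0.578, so knockout library b lay just above the wild type. HSPG2 per LAMC1 was 0.207, 0.189 and 0.172 in wild type and 0.187, 0.185 and 0.174 in the knockout. These overlapped (log2 difference -0.06, exact permutation p = 0.50), and the sign turned without wild-type library a (0.01).

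**Figure D2:**
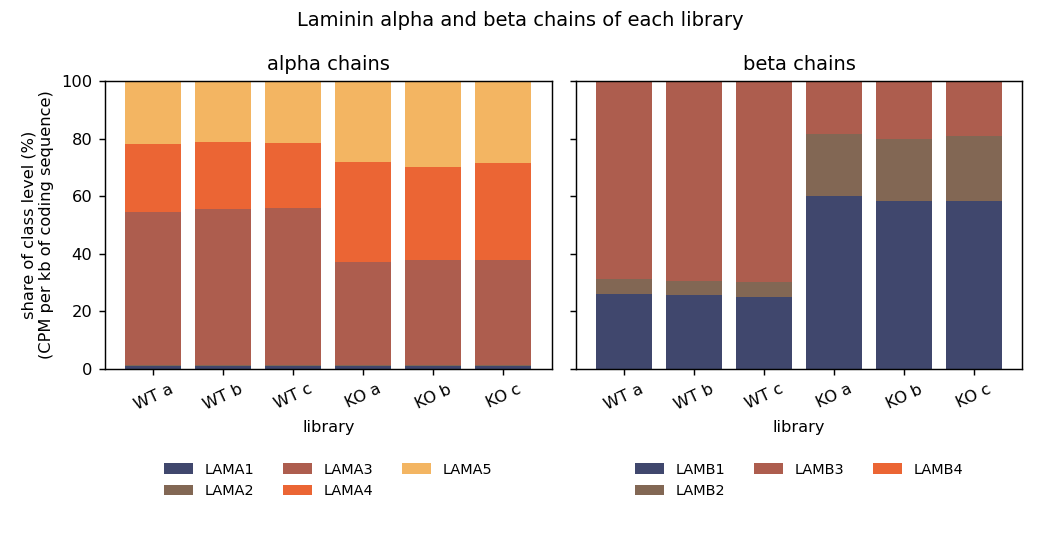
Share of each chain in the summed level of its class, per library, in percent, with levels in CPM per kb of the longest coding sequence. Each bar is 1 library. LAMB3 makes up 68.60 to 69.71% of beta chain level in wild-type libraries and 18.41 to 19.96% in knockout libraries, where LAMB1 is the largest part.

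To order the genes by level, CPM was divided by the kb of the longest coding sequence in GENCODE release 29, which leaves out untranslated parts. On this scale the order of the 9 genes in wild type was LAMB3 (172 ± 2.82), LAMC1 (125 ± 2.90), LAMB1 (63.6 ± 1.48), LAMA3 (37.9 ± 0.501), LAMA4 (16.1 ± 0.768), LAMA5 (15.1 ± 0.674), LAMB2 (12.9 ± 0.746), HSPG2 (8.67 ± 0.994) and NID1 (0). LAMA4 and LAMA5, next to each other in this order, differed by less than the sum of their SDs. In the knockout LAMC1 led (76.3 ± 2.51), followed by LAMB1 (41.6 ± 0.575), LAMB2 (15.4 ± 0.854), LAMB3 (13.5 ± 0.565), LAMA3 (10.5 ± 0.289), LAMA4 (9.70 ± 0.289), LAMA5 (8.32 ± 0.382), HSPG2 (5.09 ± 0.358) and NID1 (0.0193 ± 0.0232). LAMB3 therefore went from the highest of the 9 to below LAMB2. The place of LAMA3 depends on its isoform, since with the shorter coding sequence described below it stood at 73.2 ± 0.969 in wild type, above LAMB1, and at 20.3 ± 0.559 in the knockout, above LAMB2 and LAMB3.

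As shares of a class, LAMB3 went from 69.2 ± 0.560% to 19.1 ± 0.809% of beta chain level. LAMB1 went from 25.6 ± 0.656% to 59.0 ± 1.10% and LAMB2 from 5.18 ± 0.231% to 21.8 ± 0.899%, so the wild type had mostly LAMB3 and the knockout mostly LAMB1. LAMA3 went from 54.1 ± 0.861% to 36.3 ± 0.492% of alpha chain level, LAMA4 from 23.1 ± 0.445% to 33.6 ± 1.30% and LAMA5 from 21.6 ± 0.381% to 28.8 ± 0.831%. The share of LAMA3 depends on its isoform. The longest coding sequence has 9999 bases, while the transcript from the internal start, whose promoter is printed above, has 5172, and with that length LAMA3 made up 69.5% in wild type and 52.4% in the knockout. The counts per gene do not separate these isoforms. Summed over chains, both classes were lower in the knockout, with alpha chains at 70.0 ± 1.98 and 28.9 ± 0.545 and beta chains at 249 ± 3.36 and 70.6 ± 0.984 CPM per kb.

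Genes near each member on the chromosome were examined as a background. The median log2 fold change of the tested genes whose lowest coordinate lies within 5 Mb of a member's was taken with no test, leaving out all laminin genes, NID1 and HSPG2. LAMB1 (-0.61) lay close to its 38 neighbours, whose median was -0.56, and LAMC1 (-0.71) close to its 45 neighbours with a median of -0.74. For LAMB1, 24 of the neighbours were called lower and 6 higher, and for LAMC1 32 were lower and 5 higher. Of all tested genes, 37.2% were called lower. Over the 9 genes, the share of neighbours called lower ran from 15.4% (NID1) to 71.1% (LAMC1). LAMA3 (-1.85) lay below all of its 24 neighbours, whose median was -0.02. LAMB3 (-3.68) lay in a stretch with a median of -0.85 over 69 genes, of which 4 were lower than LAMB3.

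For the others, the neighbours' medians were -0.27 over 70 genes for LAMA5, -0.44 over 102 genes for HSPG2, -0.05 over 46 genes for LAMA4, -0.11 over 160 genes for LAMB2 and 0.21 over 39 genes for NID1. LAMA5, HSPG2 and LAMA4 lay below these medians and LAMB2 above, just inside the upper quartile of 0.26. Within 1 Mb of LAMB3 the median of 9 genes was -1.73, and 7 of them were called lower and 0 higher. The part of chromosomal position in these values was not tested.

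**Figure D3:**
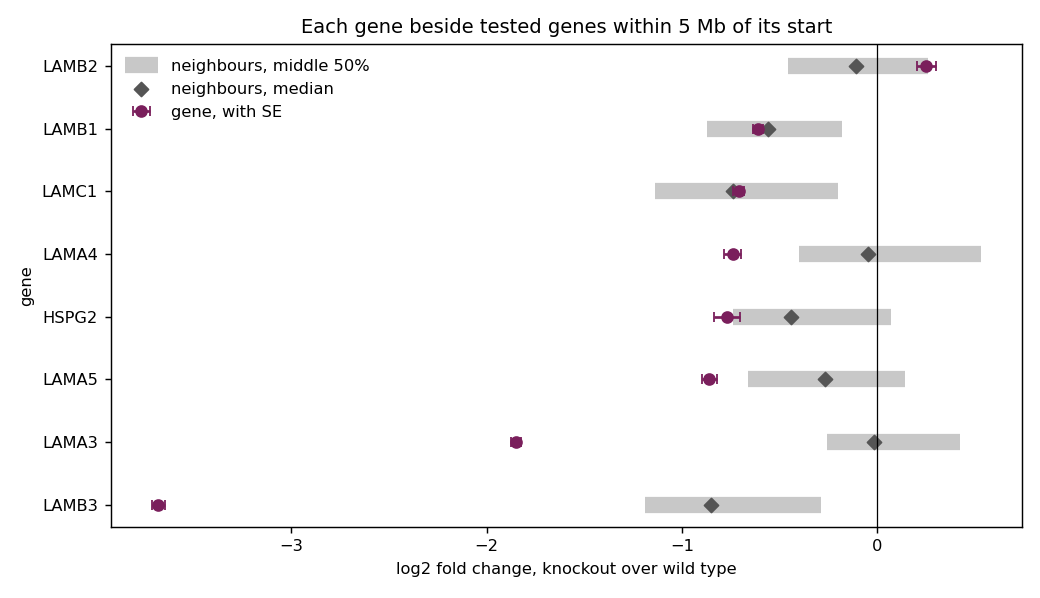
Log2 fold change of each gene with its SE (circles) beside the median (diamonds) and the range from lower to upper quartile (grey bars) of tested genes within 5 Mb. LAMB1 and LAMC1 lie close to the medians of their neighbours, LAMB2 inside the grey bar, and the other genes drawn lie below theirs, LAMB3 and LAMA3 by the most.

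The cells' laminin receptors moved in both directions. Of 12 genes all were tested, 7 rose and 5 fell, with a median of 0.22, or 0.11 without ITGA7. The count that rose was 6 with the letters as a block and in 4 of the 6 fits that left out 1 library. The background for the counts of this and the other lists is that 37.1% of all tested genes were called higher and 37.2% lower. The shared integrin beta chain ITGB1 rose from 3058 ± 43.7 to 5135 ± 44.7 CPM (adjusted p = 3.11e-12), while ITGB4, the hemidesmosomal beta chain that pairs with ITGA6, fell from 163 ± 2.89 to 80.0 ± 0.696 CPM (adjusted p = 4.52e-13). BCAM, a receptor for the LAMA5 chain, fell from 34.5 ± 2.18 to 21.5 ± 2.93 CPM. Dystroglycan (DAG1) was at 416 ± 3.90 and 448 ± 5.79 CPM, a small rise that was called (adjusted p = 0.000848). The largest rise was in the syndecan gene SDC2, from 0.866 ± 0.284 to 32.8 ± 0.936 CPM. ITGA7, a muscle laminin receptor, rose from 0.190 ± 0.0166 to 0.525 ± 0.347 CPM, and it passed the filter through the knockout libraries alone.

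Hemidesmosomes, the plaques that hold an epithelial cell to the trimer with LAMA3 and LAMB3 chains, have 6 genes on their list, of which ITGA6, ITGB4 and CD151 are also receptors above. Here 3 fell and 3 rose, with a median of -0.03. COL17A1, the transmembrane collagen of the plaque, fell from 146 ± 1.75 to 21.2 ± 0.204 CPM (adjusted p = 2.96e-16). The cytoplasmic linker DST rose from 318 ± 20.4 to 469.8 ± 14 CPM and the tetraspanin CD151 from 174 ± 0.742 to 218 ± 7.12 CPM. The members that fell were thus the transmembrane collagen and both integrin chains, and those that rose were the cytoplasmic linkers and the tetraspanin.

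Among basement membrane collagens, 8 of 9 were tested, 4 rose, 2 fell and 2 did not pass, with a median of 0.53. COL7A1, which forms anchoring fibrils under the epithelial laminin trimer, rose from 38.3 ± 1.75 to 156 ± 28.7 CPM (adjusted p = 2.89e-10). COL18A1 rose from 27.5 ± 0.989 to 79.3 ± 2.96 CPM. COL4A3 fell from 12.5 ± 0.427 to 0.482 ± 0.214 CPM and COL4A4, a partner of COL4A3 in 1 collagen IV trimer, from 66.2 ± 1.78 to 3.35 ± 0.768 CPM. With 27, 10 and 21 counts in the knockout, COL4A3 could not have passed the filter without the wild-type libraries. Laminin genes and these collagens thus did not share 1 direction.

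Of 21 other basement membrane glycoproteins 12 were tested, of which 6 rose and 6 fell. The calcium-binding glycoprotein gene SPARC rose from 0.215 ± 0.0579 to 6.49 ± 0.914 CPM, and FBLN1, the fibulin 1 gene, fell from 231 ± 7.18 to 81.7 ± 2.33 CPM. SMOC1 rose from 0.0163 ± 0.0282 to 2.49 ± 0.424 CPM and SMOC2 fell from 0.354 ± 0.0595 to 0.0161 ± 0.0278 CPM. SMOC1 and SMOC2 each passed the filter through 1 group alone, so a difference was built in. SPARC, with 10, 6 and 10 counts in wild type, could not have passed it without the knockout libraries. The same holds for NTNG2 and HMCN1, which are counted among the rises.

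**Figure D4:**
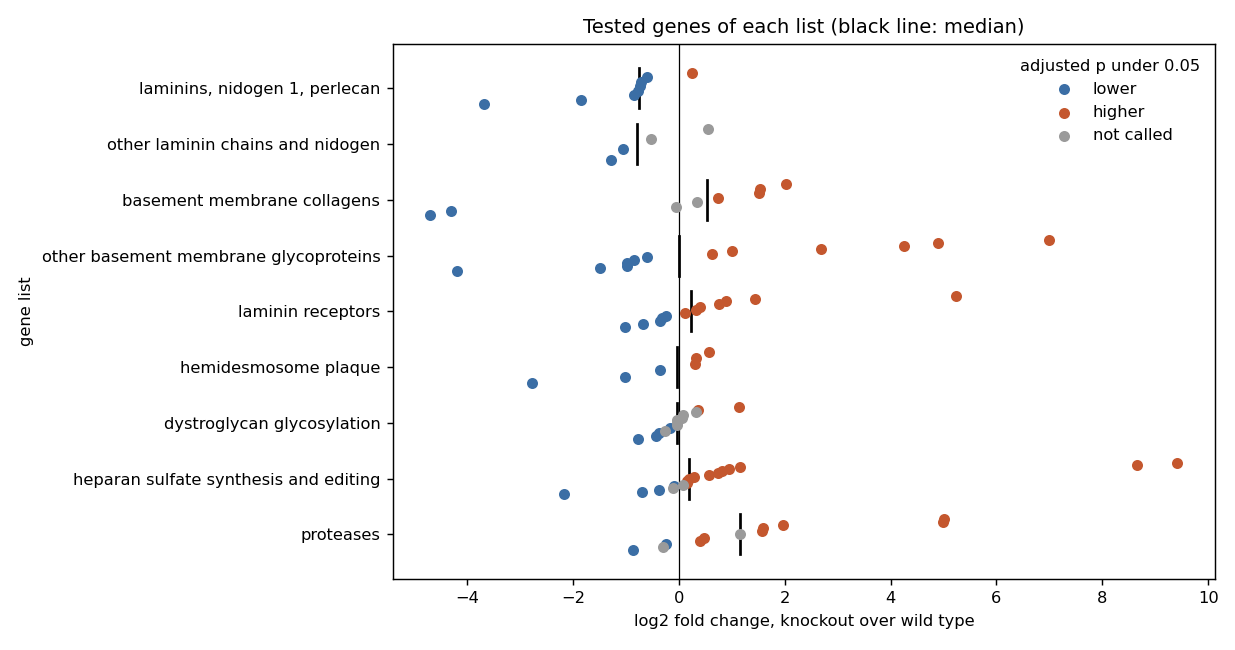
Log2 fold change of each tested gene (points), by gene list, with the list's median as a black line and the colour giving the call at an adjusted p under 0.05. In the top row LAMB2 lies to the right of 0 and the other tested genes to the left, and each of the other 8 lists drawn has genes on both sides. Fitted values of genes at or near 0 in wild type, such as SULF1, depend on the prior count.

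Genes that finish the partners of laminin were also measured. Heparan sulfate genes build and edit the sugar chains of perlecan and other proteoglycans. Of 19, 17 were tested, 11 rose, 4 fell and 2 did not pass, with a median of 0.19. SULF2, a sulfatase that trims these chains outside the cell, rose from 0.0989 ± 0.107 to 41.3 ± 1.33 CPM. Its relative SULF1 had 0 counts in wild type and 254 summed counts in the knockout, at least 84.9-fold higher against a floor of 3 counts over the group. Both could pass the filter through the knockout libraries alone. HS3ST1, a sulfotransferase, fell from 75.7 ± 0.720 to 16.8 ± 0.791 CPM and XYLT2, which starts the chain, from 57.7 ± 2.17 to 35.6 ± 3.49 CPM.

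Of 14 genes that add the sugar by which dystroglycan binds laminin, 13 were tested, 2 rose, 4 fell and 7 did not pass, with a median of -0.03. B4GAT1, which makes part of that sugar, rose from 10.4 ± 0.830 to 22.8 ± 1.32 CPM. GMPPB, which makes the activated mannose for it, fell from 21.3 ± 0.966 to 12.5 ± 1.5 CPM.

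Of 12 genes of proteases that cut laminins, nidogens or perlecan, 11 were tested, 7 rose, 2 fell and 2 did not pass, with a median of 1.15. Without MMP2 and MMP3, which passed the filter through the knockout libraries alone, the median was 0.48. Of all tested genes, 37.1% were called higher and 37.2% lower. MMP3 rose from 0.0666 ± 0.0771 to 2.21 ± 0.375 CPM and MMP2 from 0.0658 ± 0.0276 to 2.19 ± 0.232 CPM. CTSS, the cathepsin S gene, fell from 21.6 ± 1.79 to 11.8 ± 0.657 CPM and MMP14, a membrane-bound matrix protease gene, from 130.1 ± 5.35 to 110.3 ± 3.78 CPM.

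Markers of other cells that make laminins were examined because LAMA4, LAMB2 and HSPG2 are also known from stroma and vessels. Fibroblast markers summed to 16.2 to 18.5 CPM in wild type and 35.0 to 37.7 CPM in the knockout. Of 9, 5 were tested, and 4 of these rose, among them DCN, which passed the filter through the knockout libraries alone. COL1A2, COL3A1, THY1 and FAP were too low to be tested. Endothelial markers summed to 2.46 to 3.0 and 3.95 to 4.24 CPM, with 1 of 4 tested genes higher and CDH5, KDR, CLDN5 and EMCN too low to be tested. The higher gene, TIE1, could not have passed the filter without the knockout libraries. Smooth muscle and pericyte markers summed to 4.51 to 4.81 and 28.6 to 33.3 CPM, with 3 of 4 tested genes higher and 1 lower. Of the 3, DES passed the filter through the knockout libraries alone, and CSPG4 and CNN1 could not have passed it without those libraries. Most of the knockout sum was CSPG4, at 28.1 ± 2.10 CPM, and MYH11 and ACTG2 had 0 counts in all libraries. Immune markers summed to 109 to 115 and 202 to 209 CPM, nearly all from CD68, with PTPRC at 0, and 3 of 4 tested genes rose, or 2 in DESeq2 and with the letters as a block. With 1 library left out this count was 2 to 4, the 4 without wild-type library a. ITGAM, among the immune markers that rose, could not have passed the filter without the knockout libraries. Hepatocyte markers summed to 53.3 to 56.9 and 82.4 to 90.1 CPM, with both tested genes higher. These were SERPINA1 and FGB, the latter through the knockout libraries alone, and APOB and TTR were at 0. The part of these markers in the laminin values was not tested.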

How the data were processed

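Polyadenylated RNA of 6 HuCCT1 libraries, 3 per clone, was sequenced from stranded TruSeq mRNA libraries, per the labels' protocols. The authors deposited raw whole-number read counts per gene symbol. The build hg38 and the tools HISAT2, Trimmomatic 0.33, edgeR and FastQC are named, per the submitters' processing notes. Which program counted the reads, with which annotation and strand setting, is not given in the sources used here.

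Here, groups came from the genotype label. After filterByExpr, which left out 12080 rows, and TMM scaling, edgeR 4.0.16 (R 4.3.3) fitted all 6 libraries with no covariate, with its quasi-likelihood F test and Benjamini-Hochberg adjustment over 14405 genes at 0.05. An SE is the size of a log2 fold change over the root of its F. The steps were tested on simulated counts in which few genes changed, with rises and falls balanced. In these data most tested genes were called, a setting that the simulation did not cover. Rows named as spreadsheet dates (28 rows, 0.243 to 0.269% of counts) stayed in totals and are not named. Exact 95% intervals and floors of 3 counts cover counting error only. Within groups, chi-square per degree of freedom between libraries was 4.18 to 7.6, so no pair agreed within sampling noise. Coordinates are RefSeq GRCh38.p14, with 23758 symbols matched as current and 1536 as older names. Protein sequences were not used here, so coding lengths come from GENCODE release 29.

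The 9 genes and the lists were chosen with earlier results of these data known. Named genes are the 9, 5 other laminin and nidogen genes, and in each pathway list up to 2 of the largest called rises and falls, with ITGB1 and DAG1. NTNG2 and HMCN1 are named only for how they passed the filter. For marker lists counts and ranges are given, and markers named with their own values or as the main part of a sum were chosen after their values were seen. The ratio of NID1 to LAMC1 was planned but not computed. Some genes of the planned lists are not reported here, and the counts of those lists are over the rest.

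Other settings tried were DESeq2 1.42.0, limma-voom (limma 3.58.1), glmTreat against 1.5-fold, an adjusted p of 0.01, scaling by RLE factors or by totals, another or no filter, the letters as a block, each library left out, and neighbour windows of 1 and 10 Mb.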

Additional observations from a re-analysis of the deposited data

How the results depend on the processing

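The 8 tested genes kept their direction under all 15 alternatives and stayed called under all of them except glmTreat against a 1.5-fold change. There LAMB1 (-0.61, adjusted p = 0.161) and LAMB2 (0.25, adjusted p = 1.00) were not called, 0 of the 8 were called higher, and 4354 genes were called in all, beside 10711. With each library left out in turn, LAMB3 ranged from -3.70 to -3.64, LAMA3 from -1.87 to -1.83, LAMA5 from -0.89 to -0.83, HSPG2 from -0.84 to -0.68, LAMA4 from -0.77 to -0.70, LAMC1 from -0.73 to -0.66, LAMB1 from -0.63 to -0.59 and LAMB2 from 0.20 to 0.29, and 10326 to 10607 genes were called. The LAMB2 rise kept an adjusted p of at most 0.00239 outside glmTreat. Leaving out libraries moved the log2 ratio of HSPG2 to LAMC1 between -0.12 and 0.01, the count of fibroblast markers called lower between 0 and 1 (1 without knockout library c) and that of endothelial markers called higher between 1 and 2 (2 without wild-type library a). The letters do not pair the libraries: correlations of deviations were 0.058, -0.019 and 0.008 for a, b and c, and with the letter as a replicate block 7 genes were lower and 1 higher, with 10599 called in all. Neighbour medians near 0 changed sign with the window, for LAMA3 to 0.05 and for NID1 to -0.04 at 10 Mb and for LAMB2 to 0.03 at 1 Mb. The LAMA3 share with the internal start, an alternative chosen after seeing the data, was 69.5% in wild type and 52.4% in the knockout. Library totals alone moved the median of all genes by 0.054. Depth limits NID1, NID2, LAMB4 and LAMC3.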
